A study of Ovis aries with 6 samples.

Results

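Cytokines, chemokines and their receptors were measured as 43 genes on a sheep expression array that holds 14225 gene names, through 75 of its 15008 probes. Probes were taken by the array's own annotation: 62 carry a gene name of a cytokine, chemokine, interferon or tumour necrosis factor family, and 13 were recognised from their protein description alone, with interferon-induced and interferon-regulated proteins left out. The arrays compared 3 samples of cultured corneal epithelial cells with 3 samples of cultured skin epidermal stem cells from sheep (Ovis aries), grown as adherent cells with no drug or genetic treatment named in the labels and lifted with trypsin before total RNA was extracted. The design text calls the samples cell lines, and nothing in the labels says that they came from separate animals. The p-values therefore set the difference between the groups only against the spread of these samples, and that spread may be technical. All 6 arrays lie on 1 slide and were read in 1 scan, with the corneal samples in slide row 2 and the epidermal samples in row 1, and effects of row and of cell type therefore cannot be told apart.

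Cytokines are small secreted proteins by which cells signal to each other. In surface epithelia such as skin and cornea, keratinocytes and the fibroblasts beneath them make interleukin-1, tumour necrosis factor and interleukin-6 after injury. These ligands bind receptors that signal through NF-kappaB or through Janus kinases and STAT factors, and the chemokines that follow attract neutrophils and lymphocytes. Colony-stimulating factors promote the growth and survival of granulocytes and macrophages.

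The arrays gave between 11091 and 11539 of 15208 gene spots well above background in corneal samples, against 11785 to 12414 in epidermal samples, and no spot was saturated. The cultures were checked against markers of the cell types they could hold. Of 14 keratinocyte and epithelial markers listed, only 6 had a probe that could be named, and the others were not looked at. Of those with a probe, KRT19 and TP63 were well above background on no array, and KRT14, a basal keratin, on 0 of 3 corneal and 2 of 3 epidermal arrays. KRT8, a keratin of simple epithelia, was well above background on all 6 arrays, at −1.72 ± 0.13 in corneal and −1.84 ± 0.17 in epidermal samples. KRT15, a basal keratin, and DSP, a desmosome protein, were above background on 1 corneal and 3 epidermal arrays each. None of KRT8, KRT15 and DSP was called different. Corneal-specific keratins KRT3 and KRT12 were not analysed here. VIM averaged 8.60 ± 0.02 in corneal and 8.66 ± 0.12 in epidermal samples, and DCN 8.14 ± 0.03 in corneal and 8.08 ± 0.43 in epidermal samples (SD, n = 3 each). These are log2 signals relative to the array's 75th percentile, the scale of all levels given here. VIM and DCN are mesenchymal genes. By these markers the labels' epithelial identity was borne out in part at most, by KRT8 and by dim KRT15 and DSP signals. KRT15 averaged −6.54 ± 0.20 in corneal and −6.40 ± 0.18 in epidermal samples, and DSP −6.05 ± 0.31 and −5.68 ± 0.22. The lowest signal well above background was lower on every epidermal array than on any corneal array. The array counts of KRT14, KRT15 and DSP therefore do not set the groups apart. The groups are called corneal and epidermal as labelled.

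Of the 75 probes, 46 (61.3%) stood well above background on 3 or more of the 6 arrays and were kept for testing, against 78.2% of all probes. The kept probes cover 30 genes. With limma and Benjamini-Hochberg adjustment over all 11742 kept probes of the array, 14 member probes were higher and 19 lower in corneal than in epidermal cells (threshold 0.05), and 13 were not called. That threshold was passed by 59.8% of all tested probes, 26.4% being higher and 33.4% lower. The members' median log2 change was −0.15, against −0.05 over all tested probes, and their median absolute change was 0.31 against 0.25. Changes of at least 2-fold were called in 5 member probes of 3 genes that were higher, CSF2, CSF3 and TNFSF13B, where 3.46% of all tested probes were so. Likewise 5 probes of 3 genes, TNF, IL1A and IL18, were at least 2-fold lower, against 4.3% of all tested probes. The TNF probe passed the filter through the epidermal arrays alone, so its place among the lower probes was built in. In these RNA samples of whole cultures, fewer cells of a type and less RNA per cell cannot be told apart.

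**Figure D1:**
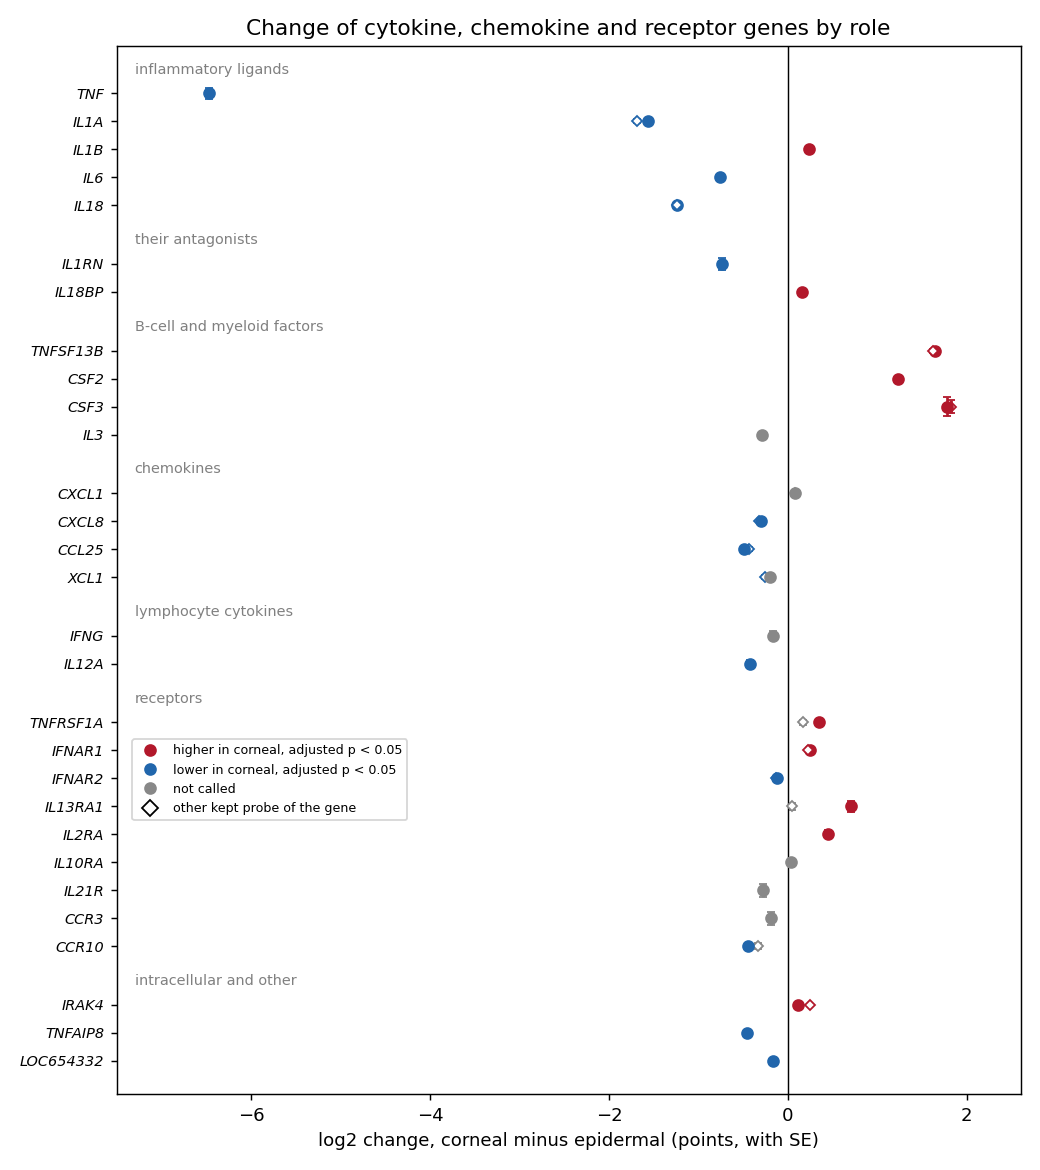
Fitted log2 change (corneal minus epidermal, horizontal axis) of genes with a kept probe, grouped by role. Filled circles are the kept probe with the highest mean of each gene, open diamonds the gene's other kept probes, and bars the SE. TNF lies at −6.47, far left of all others, and TNFSF13B, CSF2 and CSF3 lie to the right of 1.

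The probes of 4 ligand genes that changed by at least 2-fold, IL1A, IL18, CSF2 and CSF3, are shown so that it can be seen how much sequence the probes of a gene share. Each is the 60-base sequence deposited with the arrays, in lower case, with bases common to both probes of a gene in capitals.
IL1A probe 1: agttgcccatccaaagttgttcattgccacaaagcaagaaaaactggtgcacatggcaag
IL1A probe 2: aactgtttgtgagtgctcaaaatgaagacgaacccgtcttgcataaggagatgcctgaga
IL18 probe 1: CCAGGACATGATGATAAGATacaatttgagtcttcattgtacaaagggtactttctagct
IL18 probe 2: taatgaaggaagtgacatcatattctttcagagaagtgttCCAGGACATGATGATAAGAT
CSF2 probe: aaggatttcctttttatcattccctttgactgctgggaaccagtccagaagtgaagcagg
CSF3 probe 1: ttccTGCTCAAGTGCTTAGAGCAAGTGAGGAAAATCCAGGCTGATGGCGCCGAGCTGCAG
CSF3 probe 2: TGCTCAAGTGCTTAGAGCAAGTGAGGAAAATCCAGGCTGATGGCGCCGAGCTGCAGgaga
The CSF3 probes share 56 bases and read nearly the same stretch, the IL18 probes share 20, and the IL1A probes share no run longer than 5 bases. Over the 28 genes with several probes there were 37 probe pairs, of which 20 shared a run of at least 15 bases and 7 over 50, so such probes do not measure a gene independently.

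Among the inflammatory ligands, TNF, IL1A, IL18 and IL6 were lower in corneal cells, while IL1B was slightly higher. TNF encodes tumour necrosis factor, an early cytokine of inflammation that activates NF-kappaB through its receptors. Its kept probe read −7.68, −8.29 and −8.34 on corneal arrays, against −1.58, −1.69 and −1.63 on epidermal arrays. The groups lie far apart, and no corneal array was well above background. In the reported processing TNF was at least 25.7-fold lower in corneal cells. The fitted change was −6.47 ± 0.18 (log2, SE), with an adjusted p of 3.65e-06. This probe passed the filter through the epidermal arrays alone, so that it had to differ. Under normexp, another background correction, run without spots whose local background was extreme, the fitted change was −2.43. Normexp was run with an offset of 50 added to every signal, which makes changes of dim probes smaller by construction. The 25.7-fold bound therefore holds for the reported processing alone.

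The second TNF probe, annotated as a partial coding sequence, did not follow the first.
TNF second probe: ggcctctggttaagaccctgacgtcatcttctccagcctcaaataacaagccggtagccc
It is shown because the TNF result rests on the other probe alone. It read −7.32, −7.11 and −7.90 on corneal arrays, against −6.54, −7.21 and −6.44 on epidermal arrays. The groups overlap, and the probe was well above background on 0 corneal and 2 epidermal arrays, so it was not tested. The probes share no run longer than 6 bases. The kept probe holds the letters AATAAA, the common polyadenylation signal, starting at base 34 of 60, with 21 bases after them. The same letters are in 4 of the 75 member probes and in 5.63% of all probes on the array, searched in the probe's own strand, and a match is a description of the letters only. Why the TNF probes differ was not tested.

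IL1A encodes interleukin-1 alpha, which epithelial cells store and release when damaged. Probe 1 read −1.97, −2.01 and −2.05 in corneal samples, against −0.52, −0.37 and −0.46 in epidermal samples. All corneal values lie below all epidermal ones, with a change of −1.56 ± 0.05 (adjusted p = 5.22e-06). Probe 2, with no long stretch in common, gave −1.69 ± 0.07 (adjusted p = 1.62e-05), so that the stretches differed alike.

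IL18, a cytokine of the interleukin-1 family that is released after caspase cleavage and drives interferon gamma production, was also lower. Probe 1 read −0.56, −0.45 and −0.53 in corneal samples, against 0.70, 0.77 and 0.69 in epidermal samples. Every corneal sample lies more than 1 log2 unit under every epidermal sample, and the fitted change was −1.24 ± 0.04 (adjusted p = 7.14e-06). Probe 2 gave −1.24 ± 0.04. Another IL18 probe was well above background on 0 corneal and 2 epidermal arrays and was not tested.

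IL6, an inflammatory cytokine that signals through STAT3, read −0.60, −0.67 and −0.36 in corneal samples, against 0.21, 0.25 and 0.17 in epidermal samples. The groups do not overlap, with corneal sample 3 nearest to the epidermal ones, and the change was −0.76 ± 0.08 (adjusted p = 0.000684).

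IL1B, interleukin-1 beta, the inflammasome-processed partner of interleukin-1 alpha at the same receptor, went the other way from IL1A. Its probe is printed 5 times on each array and read −4.28, −4.28 and −4.33 in corneal samples, against −4.55, −4.52 and −4.51 in epidermal samples. The change was 0.23 ± 0.03 (adjusted p = 0.00139), while the repeated spots of an array had a median SD of 0.24. Without scaling between arrays the IL1B change was 0.06 and no longer called.

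Of the antagonists of these ligands, IL1RN was lower and IL18BP slightly higher in corneal cells. IL1RN, the receptor antagonist that blocks both forms of interleukin-1, read −6.09, −5.76 and −5.32 in corneal samples, against −5.02, −5.21 and −4.73 in epidermal samples. Only 2 of the 3 corneal arrays were well above background, and the change of −0.74 ± 0.22 (adjusted p = 0.0331) lost its call when epidermal sample 1 or 3 or corneal sample 1 or 2 was left out, with changes of −0.75, −0.61, −0.55 and −0.72. Under the normexp setting used for TNF, whose offset makes changes of dim probes smaller, the IL1RN change was −0.055. IL18BP, a secreted protein that neutralises interleukin-18, was higher by 0.16 ± 0.04 (adjusted p = 0.0221), with −1.28, −1.19 and −1.27 in corneal against −1.35, −1.42 and −1.45 in epidermal samples. Its groups do not overlap, but its direction flipped to −0.011 without scaling between arrays, and it lost its call without epidermal sample 2 or 3 or corneal sample 2, at 0.15, 0.13 and 0.13.

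**Figure D2:**
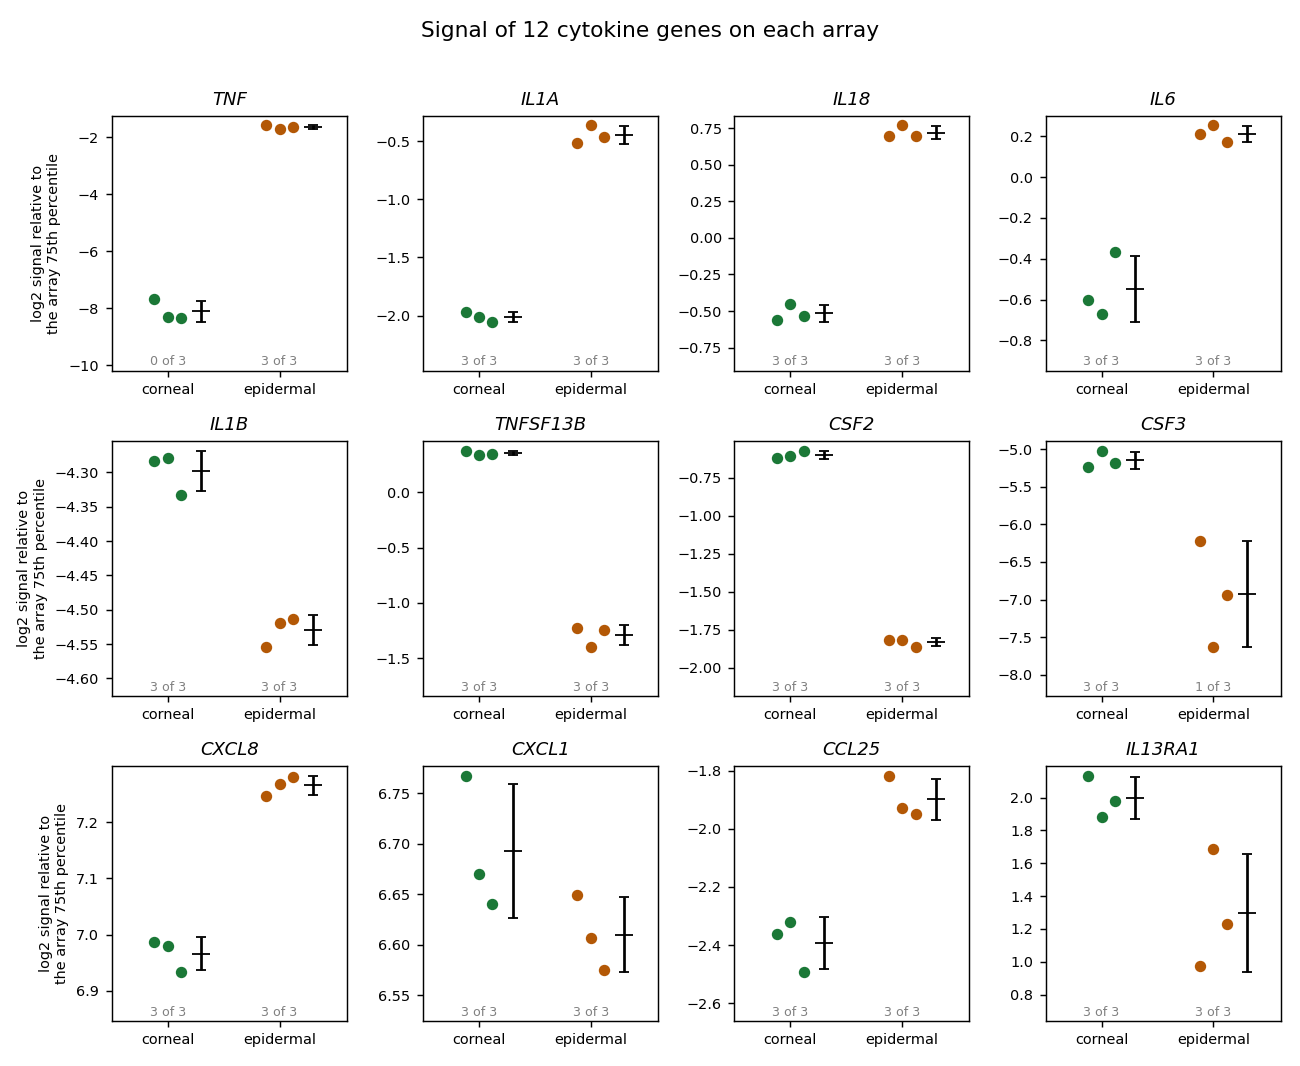
Log2 signal relative to the array's 75th percentile (vertical axis, a separate range in each panel) of 12 cytokine, chemokine and receptor genes on each array. Points are samples, bars the mean ± SD (n = 3), and grey figures count arrays well above background. TNF, IL1A, IL18 and IL6 lie lower in corneal samples, TNFSF13B, CSF2 and CSF3 higher, and CXCL1 overlaps between the groups.

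Of the factors for B cells and myeloid cells, TNFSF13B, CSF2 and CSF3 were higher in corneal cells and IL3 was not called. TNFSF13B encodes BAFF, a survival factor for B cells that belongs to the tumour necrosis factor superfamily. It read 0.38, 0.34 and 0.34 in corneal samples, against −1.23, −1.40 and −1.25 in epidermal samples. The groups stand apart, with a change of 1.64 ± 0.05 (adjusted p = 5.70e-06), and the second probe, which shares 20 bases with it, gave 1.62 ± 0.07.

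CSF2, granulocyte-macrophage colony-stimulating factor, read −0.62, −0.61 and −0.57 in corneal samples, against −1.81, −1.82 and −1.86 in epidermal samples. Within each group the samples differ by far less than the groups do, and the change was 1.23 ± 0.03 (adjusted p = 2.31e-06).

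CSF3, granulocyte colony-stimulating factor, was a dim signal. CSF3 probe 1 read −5.24, −5.02 and −5.19 in corneal samples, all well above background, against −6.22, −7.63 and −6.94 in epidermal samples, of which 1 was. No corneal value overlaps an epidermal one, and the change was 1.78 ± 0.35 (adjusted p = 0.00647). CSF3 probe 2 gave 1.83 ± 0.23, from nearly the same bases. Under the same normexp setting as for TNF, the CSF3 change was 0.41. IL3, a multilineage growth factor made mainly by T cells, read −5.62, −5.76 and −5.71 in corneal samples, against −5.58, −5.20 and −5.45 in epidermal samples. Although the IL3 groups do not overlap, the change of −0.29 ± 0.10 missed the threshold (adjusted p = 0.0568), and it was −0.37 and called without epidermal sample 1 but −0.18 and not called without epidermal sample 2. After quantile normalization the IL3 change was −0.091, and it turned to 0.087 under the normexp setting used for TNF.

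The neutrophil attractants CXCL8 and CXCL1 read far above the array's 75th percentile in both cell types and differed little between them. CXCL8, interleukin-8, read 6.99, 6.98 and 6.93 in corneal samples, against 7.25, 7.27 and 7.28 in epidermal samples. The groups do not overlap, and CXCL8 was lower in corneal cells by a change of −0.30 ± 0.03 (adjusted p = 0.000434), with −0.32 at its second probe. CXCL1, which acts on the same CXCR2 receptor, read 6.77, 6.67 and 6.64 in corneal samples, against 6.65, 6.61 and 6.57 in epidermal samples. Its groups overlap, and the change of 0.08 ± 0.04 was not called (adjusted p = 0.163), though it passed after quantile normalization, at 0.13 (adjusted p = 0.0414).

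CCL25, a thymic and gut chemokine for T cells, read −2.36, −2.32 and −2.49 in corneal samples, against −1.82, −1.93 and −1.95 in epidermal samples. It was lower in corneal cells with no overlap, by −0.49 ± 0.06 (adjusted p = 0.00103), and by −0.43 at its second probe. XCL1, lymphotactin, gave −0.20 ± 0.07 at its brighter probe (adjusted p = 0.0554) and −0.26 ± 0.06 at the other (adjusted p = 0.0156), so that a single probe passed. The XCL1 probes share 59 bases and read nearly the same stretch, on either side of the threshold. The brighter XCL1 probe was called without epidermal sample 3, at −0.27, and changed by −0.13 without epidermal sample 1.

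Among cytokines known chiefly from lymphocytes and antigen-presenting cells, few gave a signal. IFNG, interferon gamma, had a kept probe that overlapped between the groups, with −5.65, −6.02 and −6.10 in corneal against −5.92, −5.84 and −5.52 in epidermal samples (change −0.17 ± 0.16, adjusted p = 0.408), and a second probe above background on no array. IL12A, the p35 chain of interleukin-12, read −6.31, −6.65 and −6.25 in corneal samples, of which 1 was well above background, against −5.94, −5.85 and −6.14 in epidermal samples. Its change of −0.43 ± 0.13 (adjusted p = 0.0326) lost its call after quantile normalization and when epidermal sample 1 or 2 or corneal sample 1 was left out, at −0.41, −0.37 and −0.47, and the direction turned to 0.11 under the normexp setting used for TNF.

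A further 13 genes had no probe that was kept, and no difference was tested for them. IFN1, IL10 and IL5 were above background on no array. CCR9, CXCL10, IFNT6, IL12B, IL15, IL2, IL4, IL4I1 and IL7 were above background on epidermal arrays alone, in 1 or 2 readings each, and the CCR9 reading came from a spot of extreme local background on epidermal array 1. IL13, a type 2 cytokine, was the exception: it read −5.98, −7.47 and −4.73 on corneal arrays, samples 1 and 3 being well above background, against −7.09, −6.60 and −7.40 on epidermal arrays, none of them above background. The corneal IL13 values span more than 2 log2 units, and the groups overlap. Of all 29 member probes that were not kept, 15 were above background on no array, 13 on epidermal arrays alone and 1, the IL13 probe, on corneal arrays alone. More gene spots of any kind were above background on epidermal arrays, as given above, and the part of this in the members' counts was not tested. The lowest signal well above background was −7.13, −6.65 and −7.14 on epidermal arrays 1, 2 and 3, against −6.57, −6.12 and −6.26 on corneal arrays. A dim signal could thus pass on an epidermal array alone, and these counts do not show less RNA in corneal cells. The GC content of the probes had a median of 36.7% among those not kept and 43.3% among those kept, against 43.3% over the array.

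**Figure D3:**
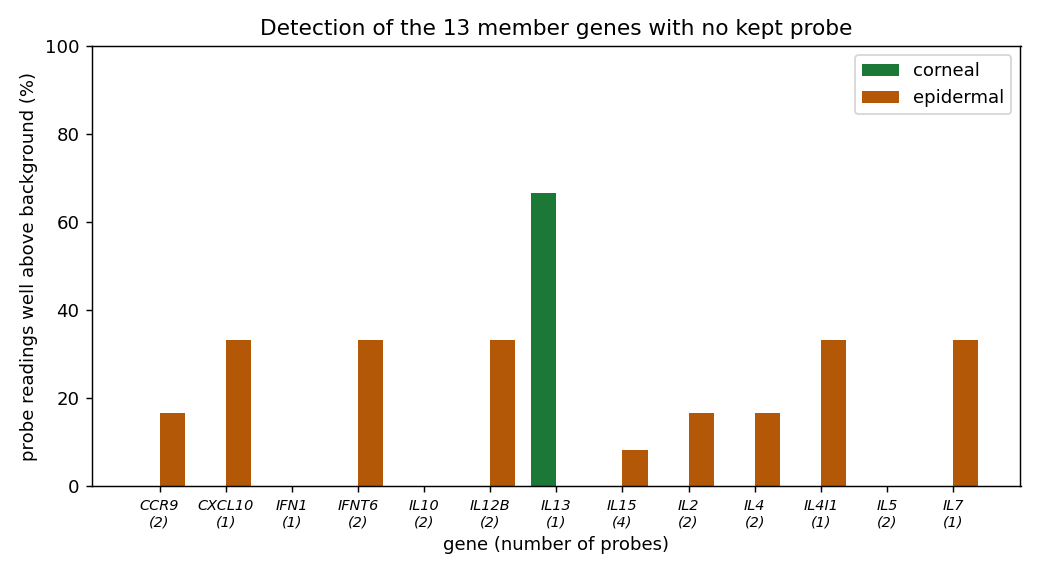
Share of probe readings well above background (percent, vertical axis) for the 13 genes without a kept probe, with the number of probes under each name and 3 arrays per group. IL13 has 66.7% of its corneal readings above background and none of its epidermal ones, and no other gene has a corneal reading above background. Dimmer signals counted as above background on epidermal than on corneal arrays.

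Receptor genes were measured for the tumour necrosis factor, interferon, interleukin and chemokine families, with no change of 2-fold or more at their kept probes. TNFRSF1A, the main signalling receptor for tumour necrosis factor, read −2.11, −2.07 and −2.07 in corneal samples, against −2.56, −2.46 and −2.27 in epidermal samples. The groups do not overlap and the receptor was higher in corneal cells by 0.35 ± 0.08 (adjusted p = 0.0112), while its second probe gave 0.17 ± 0.10 and was not called (adjusted p = 0.185). Without scaling between arrays the TNFRSF1A change was 0.18 and not called.

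The chains of the type I interferon receptor moved in opposite directions by small amounts. IFNAR1 read 3.40, 3.47 and 3.46 in corneal samples, against 3.17, 3.26 and 3.15 in epidermal samples, a change of 0.25 ± 0.04 (adjusted p = 0.00394). IFNAR2 read 0.50, 0.50 and 0.49 in corneal samples, against 0.66, 0.59 and 0.61 in epidermal samples, a change of −0.12 ± 0.03 (adjusted p = 0.0158). Neither gene's groups overlap, and second probes gave 0.23 and −0.14. These calls depend on the scaling between arrays, since without it all changes shifted by −0.17, IFNAR1 was 0.08 and not called, and with median centring IFNAR2 was −0.09 and not called. IFNAR2 also lost its call without corneal sample 2 or 3, at −0.13 and −0.12.

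IL13RA1, a chain of the receptor for interleukin-4 and interleukin-13, had probes that disagreed.
IL13RA1 probe 1: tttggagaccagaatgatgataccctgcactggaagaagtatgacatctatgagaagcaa
IL13RA1 probe 2: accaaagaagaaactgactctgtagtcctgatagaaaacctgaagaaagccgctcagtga
They are shown because they share no run longer than 6 bases and so read separate stretches. IL13RA1 probe 1 read 2.13, 1.88 and 1.98 in corneal samples, against 0.97, 1.68 and 1.23 in epidermal samples. The epidermal samples spread widely without reaching the corneal ones, and the change was 0.70 ± 0.19 (adjusted p = 0.0212), which lost its call without epidermal sample 3 or corneal sample 1 or 3, at 0.67, 0.63 and 0.71. IL13RA1 probe 2 read −5.33, −4.89 and −5.20 in corneal samples, against −5.18, −5.28 and −5.09 in epidermal samples, which overlap, with a change of 0.04 ± 0.12 (adjusted p = 0.771).

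IL2RA, the alpha chain of the interleukin-2 receptor, was higher by 0.45 ± 0.14 (adjusted p = 0.0389), with −5.27, −5.24 and −5.10 in corneal against −5.97, −5.49 and −5.50 in epidermal samples. Its groups do not overlap, but the call was lost when any corneal sample was left out, with changes of 0.40 to 0.49. Without epidermal sample 1 the IL2RA change was 0.29 and called, and its second probe was above background on 1 array. IL10RA, a chain of the interleukin-10 receptor, changed by 0.03 ± 0.05 (adjusted p = 0.548), IL21R, the interleukin-21 receptor, by −0.28 ± 0.23 (adjusted p = 0.341) and CCR3, the eotaxin receptor, by −0.19 ± 0.23 (adjusted p = 0.508), with values that overlap between the groups. CCR10, a skin-homing receptor of T cells, was lower at 1 probe by −0.44 ± 0.07 (adjusted p = 0.00357), with −4.31, −4.28 and −4.24 in corneal against −3.67, −3.92 and −3.91 in epidermal samples. The other CCR10 probe, shifted by a single base, gave −0.34 ± 0.12 and was not called (adjusted p = 0.0504). Under the normexp setting used for TNF the first CCR10 change was −0.12 and not called.

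The rule also took in genes named for cytokines that act inside the cell. IRAK4, the kinase that relays interleukin-1 and Toll-like receptor signals, was higher by 0.12 ± 0.04 (adjusted p = 0.0323) and 0.25 ± 0.05 (adjusted p = 0.00474) at its probes. The brighter IRAK4 probe read −0.40, −0.42 and −0.44 in corneal against −0.51, −0.51 and −0.59 in epidermal samples, without overlap. Without scaling between arrays its direction flipped to −0.05, and it lost its call without epidermal sample 3 (0.09) or when any corneal sample was left out (0.11 to 0.12). TNFAIP8, a gene first found as induced by tumour necrosis factor, was lower by −0.46 ± 0.05 (adjusted p = 0.000508), with −3.50, −3.47 and −3.45 in corneal against −3.08, −2.92 and −3.04 in epidermal samples.

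LOC654332, annotated as similar to a protein induced by TNFSF5, was lower by −0.16 ± 0.04 (adjusted p = 0.0150), with 3.81, 3.77 and 3.72 in corneal against 3.95, 3.96 and 3.88 in epidermal samples.

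Over the 15 genes with several kept probes, 10 had the same call at every probe, 5 had a called probe beside one that was not called, and 0 had opposite calls. In 13 of the 15 the probes' changes lay within 0.2 of each other, and IL13RA1 was among the exceptions.

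Genes that carry or follow cytokine signals were taken from 4 lists of textbook pathway members, of which 32 genes were measured: 14 were higher and 11 lower in corneal cells. For these the shares of all tested probes given above, 26.4% and 33.4%, are the background. In the order given below, the lists held 37, 26, 25 and 22 genes. Of these, 6, 4, 13 and 17 had a probe that could be named, and the others were not looked at. No gene symbol could be given to 13634 of the 15008 probes, so the counts do not survey the pathways. Of 6 measured NF-kappaB and receptor adaptor genes, 3 were higher and 3 lower, with a median change of −0.02. RELA, an activating NF-kappaB subunit, was higher by 0.27 ± 0.03 (adjusted p = 0.000629), NFKBIB, an inhibitor, by 0.17 ± 0.04 and IRAK4, counted here too, by 0.12. The adaptor TRAF3 was lower by −0.41 ± 0.07 (adjusted p = 0.00333), the adaptor MYD88 by −0.30 ± 0.09 (adjusted p = 0.0314) and the inhibitor NFKBIA, itself an NF-kappaB target, by −0.16 ± 0.05 (adjusted p = 0.0344). TNFAIP3, STAT3 and SOCS3 were not analysed here. In the Janus kinase and STAT list, STAT5A changed by −0.08 ± 0.09 (adjusted p = 0.514) and IRF1 by −0.18 ± 0.06 (adjusted p = 0.0546), and neither was called.

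Of 11 measured genes for processing enzymes, decoys and related secreted mediators, 2 were higher, 5 lower and 4 not called, with a median change of −0.31. MIF, macrophage migration inhibitory factor, was higher by 0.67 ± 0.03 (adjusted p = 1.48e-05) and the death receptor FAS by 0.60 ± 0.03 (adjusted p = 3.08e-05). TGFB1, transforming growth factor beta 1, was lower by −0.84 ± 0.04 (adjusted p = 1.60e-05), the receptor CD40 by −0.84 ± 0.07 (adjusted p = 0.000198) and HGF, hepatocyte growth factor, by −0.49 ± 0.03 (adjusted p = 9.27e-05). ADAM17, the protease that sheds tumour necrosis factor from the cell surface, was lower by −0.62 ± 0.03 (adjusted p = 4.52e-05), with no overlap between the groups.

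Among 12 measured genes that inflammatory cytokines induce, 8 were higher, 3 lower and 1, ICAM1, not called, with a median change of 0.89. MMP13, a collagenase, was higher by 2.00 ± 0.22 (adjusted p = 0.000631), CFB, complement factor B, by 1.88 ± 0.03 (adjusted p = 6.56e-07) and the collagenase MMP1 by 1.85 ± 0.04 (adjusted p = 1.12e-06). MMP13 was dim, with −4.74, −4.64 and −4.84 in corneal samples, against −6.73, −7.19 and −6.32 in epidermal samples. Of these epidermal values 2 were well above background, so the size of the MMP13 change rests in part on signal near background. PTGS2, the inducible cyclooxygenase, read 4.67, 4.62 and 4.62 in corneal samples, against 3.10, 3.11 and 3.08 in epidermal samples. All corneal PTGS2 values stand above the epidermal ones, by 1.54 ± 0.03 (adjusted p = 1.03e-06). The urokinase PLAU, its receptor PLAUR and the pentraxin PTX3 were lower, by −0.60 ± 0.04, −0.53 ± 0.04 and −0.34 ± 0.04 (adjusted p = 5.86e-05, 0.000140 and 0.000764). In the same corneal samples TNF, IL1A, IL18 and IL6 were lower, and IL1B, TNFSF13B, CSF2 and CSF3 were higher. A link between these ligands and the 8 higher genes was not tested.

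**Figure D4:**
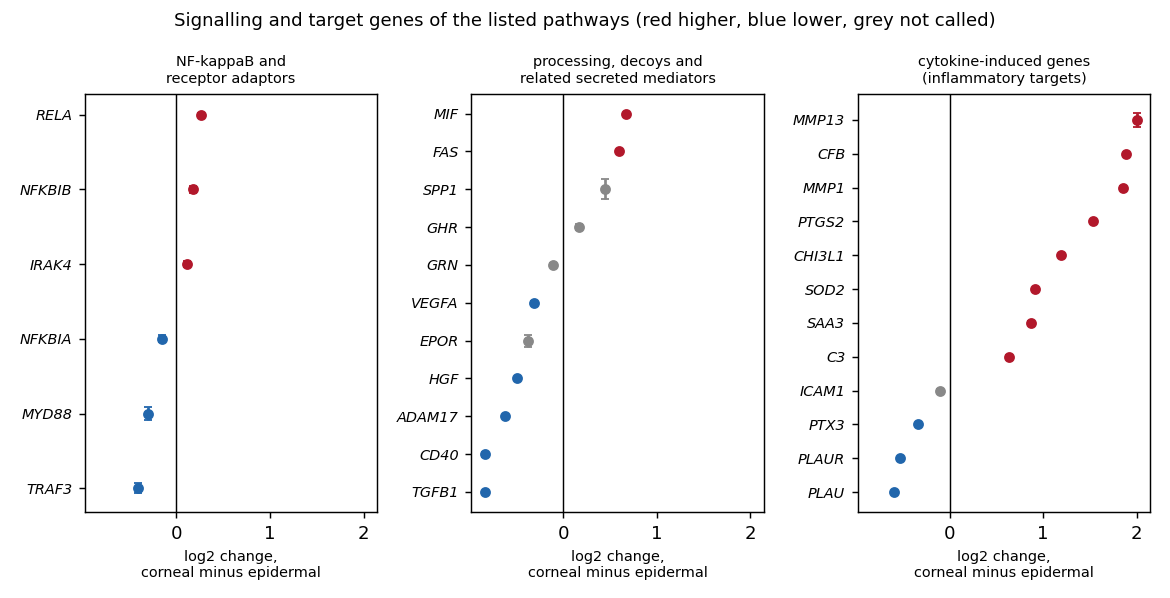
Fitted log2 change (corneal minus epidermal, horizontal axis, with SE) of the measured genes of 3 signalling lists, red for higher, blue for lower and grey for not called. In the list of cytokine-induced genes 8 of 12 lie to the right of 0 and were called, with MMP13, CFB, MMP1 and PTGS2 above 1.5.

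Some markers of immune cells, which make several of these cytokines in tissue, differed between the groups. Of 22 listed, 11 had a probe that could be named. Of these 11, 5 were measured and 2 of the measured were lower in corneal cells, where 33.4% of all tested probes were lower. CD14, a monocyte co-receptor, was lower by −0.31 ± 0.04 (adjusted p = 0.000928), FCGR3A, an Fc receptor of natural killer cells and macrophages, by −4.83 ± 0.20 (adjusted p = 1.47e-05), and TYROBP, FCER1G and CD3E were not called. FCGR3A was well above background on 1 of 3 corneal arrays and on all epidermal arrays, with −5.54, −6.07 and −6.35 in corneal against −1.13, −1.17 and −1.18 in epidermal samples. The list's summed signal, in multiples of the array's 75th percentile, lay between 2.28 and 2.37 in corneal and between 3.11 and 3.34 in epidermal samples, without overlap. The markers CD3D, CD4, CD8A and ITGAM were above background on no array, and ITGB2 and LYZ on 2 epidermal arrays each. The part of immune cell markers in the TNF, IL1A and IL18 results was not tested. Of 12 mesenchymal markers listed, 8 had a probe that could be named. Of these 8, 1 was higher, 4 lower and 3 not called, where 26.4% of all tested probes were higher and 33.4% lower. COL3A1, a fibrillar collagen, was lower by −4.51 ± 0.04 (adjusted p = 1.46e-07) and by up to −5.33 at its other probes. The list had a summed signal of 938 to 960 in corneal and 976 to 1203 in epidermal samples. Of 9 endothelial markers with a probe, 4 were measured, of which EGFL7 and ENG, the brightest, were not called. VWF and TIE1 were above background on all epidermal and on no corneal arrays, and were at least 1.46-fold and at least 1.12-fold lower in corneal cells (adjusted p of the fitted changes 0.00198 and 0.00217). Both passed the filter through the epidermal arrays alone, so that a difference was built in and these p-values lend it no weight. KDR was above background on 2 epidermal arrays and FLT1 on 1, and PECAM1, CDH5 and TEK on no array.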

How the data were processed

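Total RNA of 6 sheep cell samples (3 corneal, 3 epidermal) was labelled with Cy3 and hybridised to an Agilent array of its own, per the labels' protocols. The submitters' processing notes name Agilent Feature Extraction 10.7. The deposited values are linear intensities, background-subtracted per the file headers. The authors also deposited log2 values, and the sources used here do not give how those were made. Each array's median in that table was 7.23 and its correlation with the processed signal at least 0.999, and they served as an alternative.

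Control spots and spots marked as outliers were left out, which removed 3 member values, all of CXCL10 and IL5. The log2 processed signal less that array's 75th percentile was averaged for each probe. Probes well above background on 3 or more of the 6 arrays of either group were fitted in R 4.3.3 by limma 3.58.1 (lmFit, then eBayes, no block). Calls were made at a Benjamini-Hochberg adjusted p under 0.05. The fit was tested on simulated data. Where no array of a group was well above background, the fold is a bound: the mean of the bright group is set over that of the dim group, where each dim array takes its lowest signal well above background or the probe's own, whichever is higher. Precision is limited by how many arrays there are.

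Genes were named from the arrays' annotation and a RefSeq gene table of the assembly ARS-UI_Ramb_v3.0, which served only for names. No genome was used, so probe positions were not analysed here. Every member with a kept probe is named and its kept probe with the highest mean is given in full, apart from results that are not reported here. From each signalling list up to 4 called genes per direction with the largest change are named, with NFKBIA and MYD88 whatever their result, and from each cell type list the 2 brightest. The members, lists and tests were chosen with earlier results of these data known. Same-numbered samples were not linked by the labels and their deviations correlated by −0.03 to 0.04, so they were not treated as pairs. Alternatives were background correction, scaling, the authors' values, filters, probes per gene, outlier spots, the replicate block and leaving out each sample. The normexp runs added an offset of 50 to every signal, so dim probes such as those of IL1RN, CSF3, IL12A, IL3 and CCR10 change less there by construction.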

Additional observations from a re-analysis of the deposited data

How the results depend on the processing

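With normexp background correction of all spots, member probes called higher and lower numbered 1 and 5 (against 14 and 19), all probes 196 and 230 (against 3100 and 3925) and signalling genes 3 and 1 (against 14 and 11). There 8 gene spots of extreme local background lie on epidermal array 1, and with them left out the counts of all 3 were within 1.5 times of those reported. With all spots the normexp changes of CSF3, IL1B, IL2RA, TNFRSF1A, IL18BP and LOC654332 reversed to −0.58, −0.59, −0.73, −0.20, −0.093 and 0.034, and with the extreme spots left out IL12A reversed to 0.11. Without scaling between arrays 7 member probes and 1534 of all probes were higher, IL18BP and IRAK4 reversed to −0.011 and −0.050, and the share of higher among all calls was 22.5% (against 44.1%). Of 504 alternative values of single genes, 433 kept their side of the threshold, 51 lost the call, 11 gained it and 9 reversed. A reversal was counted only where the change was called in the reported fit or in the alternative. Changes of sign that were called in neither, as for IL3, are among the 433. IL1A, IL18, IL6 and TNFSF13B kept their call and direction under every alternative. TNF kept them wherever it could be run, but its probe passed the filter through the epidermal arrays alone. A TNF difference was therefore built in, and its persistence lends the result no weight. The filter that asked for signal well above background on every array left TNF out. With the replicate block, IFNAR2, IL12A, IL13RA1, IL18BP and IRAK4 lost their calls (adjusted p = 0.0534, 0.0875, 0.0601, 0.0586 and 0.0615) and XCL1 gained one (adjusted p = 0.0489), and all probes called numbered 2754 higher and 3520 lower. Signals near background, such as those of CSF3, IL1RN and IL12A, limit what can be said of these genes.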
